A study of Mus musculus with 6 samples.

Results

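The EYA cofactors and SIX-family factors described here are 7 genes, Eya1, Eya2, Eya3, Eya4, Six2, Six4 and Six5, out of 35275 gene identifiers in the deposited expression table. They were chosen by family name because Eya2 showed a strong fall in the knockout cells, so the difference of Eya2 is given as a description with no test. The other 6 genes belong by name and not by their values. The cells were ID8-KMF, a mouse ovarian cancer line of C57Bl6/J background that was derived from ID8 cells by passage in mice. Cells of all 6 libraries were Rgnef-/-, with the endogenous Arhgef28 gene, which encodes Rgnef, disrupted. The first group, called GFP-Rgnef, held 3 libraries of Rgnef-/- cells in which a lentivirus restored Rgnef as a GFP fusion. The second group, called knockout, held 3 libraries of Rgnef-/- cells without that lentivirus. Both were subconfluent cultures on plastic with a Matrigel coat. Effects of the lentivirus, of the GFP tag and of Rgnef cannot be told apart in this design, and whether the knockout cells were 1 clone is not given in the sources used here. The libraries of a group carry numbers but no statement of separate cultures, so the spread between them may be technical.

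SIX-family proteins are homeodomain transcription factors that bind DNA but often need a partner to activate their targets. EYA proteins are such partners: they do not bind DNA themselves, they carry a transactivation region, and their conserved carboxy-terminal EYA domain both contacts SIX-family proteins and holds a protein tyrosine phosphatase of the haloacid dehalogenase type. Together with PAX and DACH proteins they form a network known from eye, ear, kidney and muscle development, and EYA and SIX-family genes have been studied as re-activated factors in tumours, EYA2 among them in ovarian cancer.

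The EYA domain is the part in which the EYA genes are most alike, so its coding sequence shows how far reads of 1 EYA gene could be taken for those of another. The 60 coding bases around the codons of the phosphatase's conserved aspartate motif are shown for the longest coding transcript of each gene, 5′ to 3′ (GENCODE M 21, GRCm38), with capitals at bases that differ from Eya2. They lie in coding exons, at chr1:14229517-14229576 in exon 11 of 18 for Eya1 (minus strand), chr2:165731553-165731612 in exon 9 of 16 for Eya2 (plus strand), chr4:132699030-132699089 in exon 11 of 18 for Eya3 (plus strand) and chr10:23138215-23138274 in exon 12 of 19 for Eya4 (minus strand).
Eya2: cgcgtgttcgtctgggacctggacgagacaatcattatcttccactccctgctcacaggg
Eya1: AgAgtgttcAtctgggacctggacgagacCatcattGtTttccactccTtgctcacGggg
Eya4: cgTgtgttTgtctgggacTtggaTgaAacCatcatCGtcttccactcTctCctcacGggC
Eya3: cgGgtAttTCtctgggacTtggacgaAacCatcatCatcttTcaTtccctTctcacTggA
In this stretch Eya1 differed from Eya2 at 8 of 60 bases, Eya4 at 12 and Eya3 at 13. From the motif to the stop codon all 4 genes had 798 coding bases, and pairs of them were 68.4% to 75.9% identical, with 70.6% between Eya2 and Eya4. Of 2977 distinct words of 30 bases in the annotated transcripts of Eya2, 0 occurred in transcripts of any other gene on either strand. Of 9393 such words of Eya4, 66 did (0.703%), and 0 of these were in another of the 7 genes. No exon of the 7 genes overlapped an exon of another annotated gene on either strand. Eya2 and Eya4 thus shared no word of that length.

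The values implied 15898965 to 17977069 reads per library. Arhgef28 stood at 57.2, 50.9 and 50.02 FPKM (fragments scaled to transcript length and library size) in the GFP-Rgnef libraries and at 0.116, 0.110 and 0.134 in the knockout libraries, as the labels have it, although construct and endogenous reads were not separated. Of 9 epithelial markers 7 were above the filter, namely Krt8, Krt18, Krt19, Wt1, Msln, Upk3b and Cdh1, while Krt7 and Epcam stayed near 0. The summed epithelial level ran from 1657 to 2465 FPKM with GFP-Rgnef and from 1548 to 2483 without. Krt18 fell, from 319.8 ± 29.8 to 224.4 ± 9.21 FPKM (SD, n = 3; limma adjusted p = 0.00625), and its part in the results below was not tested. The widest shift of the list was that of Upk3b, at 92.3 ± 43.1 FPKM with GFP-Rgnef and 251.1 ± 116.7 without, which did not pass (limma adjusted p = 0.0878). Its groups overlapped, and the library numbered 3 was the lowest in each. Cdh1, at 7.33 ± 0.266 and 5.15 ± 1.68 FPKM with groups that did not overlap, did not pass either (limma adjusted p = 0.142). Of 5 leukocyte markers 3 were at 0 in every library and the sum was at most 0.0188 FPKM. Of 5 skeletal muscle markers 3 were at 0, and the sums, 0.0812 to 0.152 FPKM with GFP-Rgnef and 0.225 to 0.434 without, were close to 0. Of 4 endothelial markers Kdr was at 0 and Pecam1 and Cdh5 stayed near 0, while the receptor gene Tek stood at 103.8 ± 7.15 FPKM with GFP-Rgnef and 124.3 ± 33.6 without (SD, n = 3). In bulk RNA, fewer expressing cells and less RNA per cell cannot be told apart.

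Eya2 (ENSMUSG00000017897, GRCm38 chromosome 2, 165595032 to 165771727, plus strand) was the member with the greatest difference, by which the family was chosen. Its level was 13.9, 14.8 and 13.1 FPKM in the GFP-Rgnef libraries, from 292, 292 and 281 reads. In the knockout libraries it was 1.62, 1.49 and 1.59 FPKM, from 36, 32 and 33 reads. The groups lay far apart and the libraries within each group close together, with coefficients of variation of 6.10% and 4.50%. The ratio of the means, 13.96 ± 0.852 over 1.57 ± 0.0704 FPKM (SD, n = 3), was 8.91-fold, and the ratio of single libraries ran from 8.12 to 9.99. Eya2 RNA was low in knockout cells but not absent. On the scale of log2(FPKM + 1) the difference, knockout minus GFP-Rgnef, was -2.54 (SE 0.0905), the fourth lowest of 11500 tested genes (rank 4). Which Eya2 isoforms fell was not analysed here, since the table has 1 value per gene.

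Eya4 (ENSMUSG00000010461, chromosome 10, 23102963 to 23350786, minus strand), a paralog known as a deafness gene, went the other way and rose in the knockout cells. It stood at 7.29, 7.02 and 6.72 FPKM in the GFP-Rgnef libraries, from 423 to 470 reads. In the knockout libraries it stood at 13.5, 14.4 and 11.0 FPKM, from 695 to 949 reads. Every knockout library was at least 1.503 times as high as every GFP-Rgnef library, and the ratio of the means was 1.84. The difference was 0.79 on the log2 scale (SE 0.108, limma adjusted p = 0.00405 over all tested genes). With any 1 library left out it ran from 0.72 to 0.90, with limma adjusted p from 0.00189 to 0.0225.

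Eya3 (ENSMUSG00000028886, chromosome 4, 132638987 to 132724765, plus strand), the most abundant EYA gene here, did not pass the test. Its level was 23.5, 24.04 and 21.8 FPKM with GFP-Rgnef and 21.8, 21.1 and 19.3 FPKM without. The groups only just did not overlap, since the lowest GFP-Rgnef library was 1.004 times the highest knockout library. The log2 difference was -0.15 (SE 0.078, limma adjusted p = 0.240). Eya1 (ENSMUSG00000025932, chromosome 1, 14168954 to 14310235, minus strand), which is needed for ear and kidney development, was hardly detected. It had 0 reads in each GFP-Rgnef library and 3, 1 and 1 reads in the knockout libraries. A count of 0 allows up to 3 reads, here 0.0762 to 0.0828 FPKM in the GFP-Rgnef libraries, so no fold is given. This limit covers counting error only. Eya1 lay below the filter of a mean of 0.5 FPKM and was not tested.

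**Figure D1:**
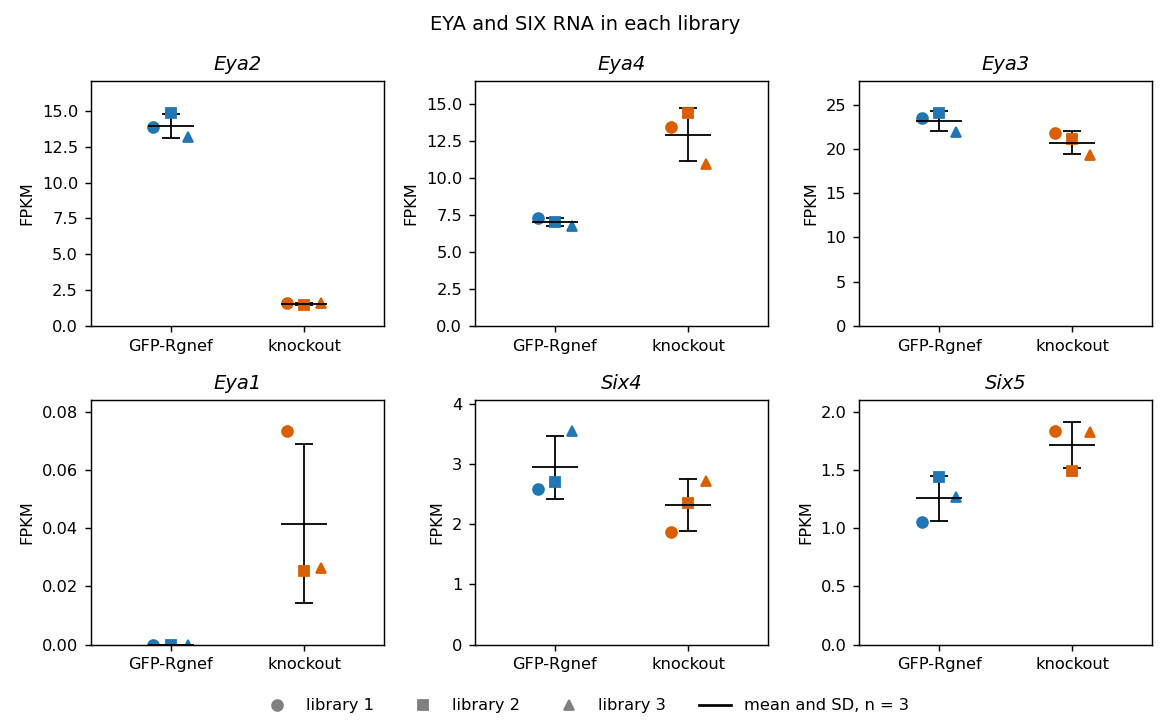
FPKM (vertical axis, from 0, with its own scale in each panel) of 6 genes in the 3 GFP-Rgnef and 3 knockout libraries; points are libraries, with a marker shape for each library number, and bars are mean and SD. Eya2 falls from about 13.96 to 1.57 FPKM and Eya4 rises from 7.01 to 12.9, while the groups lie close for Eya3 and overlap for Six4.

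The make-up of EYA RNA therefore differed between the groups. Summed over the 4 genes, the EYA level was 44.1 ± 2.15 FPKM with GFP-Rgnef and 35.2 ± 2.93 without (SD, n = 3). Eya2 made up 31.6% ± 0.648 of the sum with GFP-Rgnef and 4.47% ± 0.495 without. Eya4 made up 15.9% ± 0.543 with GFP-Rgnef and 36.6% ± 2.28 without, so that it took the second place from Eya2. The share of Eya3 was 52.5% ± 0.146 and 58.8% ± 1.78. The ratio of Eya4 to Eya2 went from 0.503 ± 0.0272 to 8.29 ± 1.40. These shares contain Eya2 and are a description with no test. Without Eya2 the sum was 30.8, 31.1 and 28.6 FPKM in GFP-Rgnef libraries and 35.3, 35.5 and 30.3 in knockout libraries, so that the groups overlapped. Levels of different genes rest on the length by which each was divided. The length implied for Eya2 was 1237 bases, the mean of its 6 annotated transcripts, while its longest coding transcript has 2460. With the longest coding transcript as length, Eya2 made up 29.3% with GFP-Rgnef and 3.83% without, Eya4 21.0% and 44.6%, and Eya3 49.7% and 51.5%. The length implied for Eya4, 3790 bases, was the smallest that gave whole reads. The reads of Eya4, its level on this scale and these shares rest on that choice. On this scale Eya3 and Eya4 stood at 10.6 ± 0.655 and 9.24 ± 1.27 FPKM in knockout cells. Eya4 was 0.860, 0.951 and 0.790 times as high as Eya3 in knockout libraries 1, 2 and 3. The order was the same on both scales, with Eya3 above Eya2 above Eya4 with GFP-Rgnef and Eya3 above Eya4 above Eya2 without.

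**Figure D2:**
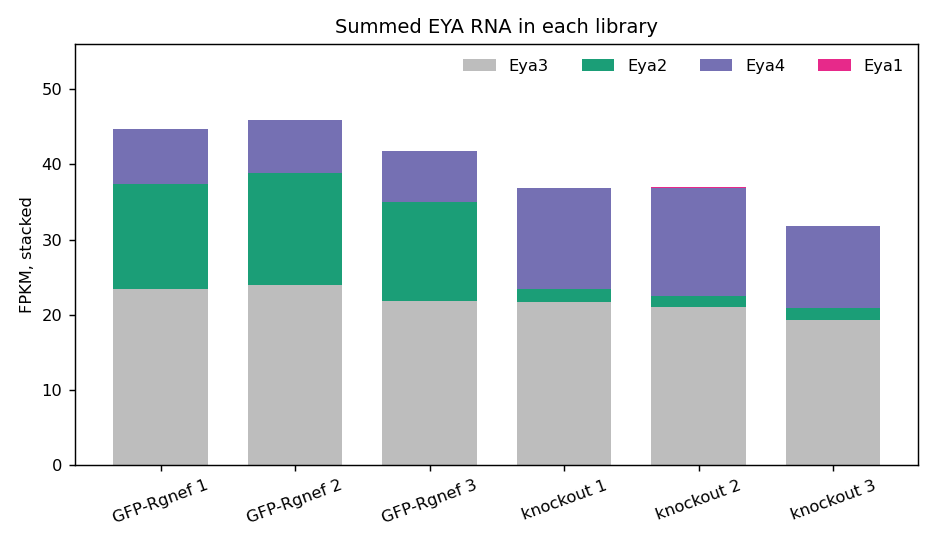
Stacked FPKM (vertical axis, from 0) of Eya3, Eya2, Eya4 and Eya1 in each of the 6 libraries. The Eya2 block shrinks from 31.6% to 4.47% of the bar and the Eya4 block grows from 15.9% to 36.6%, while Eya1 is too low to be seen.

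Of the SIX-family genes described here, which are not the whole family, Six4 and Six5 were expressed at low levels and Six2 was listed at 0. Six4 (ENSMUSG00000034460, chromosome 12, 73099609 to 73113456, minus strand), a SIX-family factor of muscle and gonad development, had 2.59, 2.70 and 3.54 FPKM with GFP-Rgnef. Without GFP-Rgnef it had 1.87, 2.36 and 2.72 FPKM. The groups overlapped, and in each group the library numbered 3 was the highest. The log2 difference was -0.25 (SE 0.142, limma adjusted p = 0.296). It was -0.15 without either GFP-Rgnef 3 or knockout 1, and ran to -0.34 with another library left out. Six2 (ENSMUSG00000024134, chromosome 17, 85684277 to 85688274, minus strand), the factor that maintains nephron progenitors, had 0 reads in all 6 libraries. With the length of its longest coding transcript, a count of 0 allows up to 0.0788 to 0.0890 FPKM.

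Six5 (ENSMUSG00000040841, chromosome 7, 19094594 to 19098549, plus strand), which lies next to the myotonic dystrophy kinase gene Dmpk, had 1.06, 1.44 and 1.27 FPKM with GFP-Rgnef, from 54 to 69 reads. Without GFP-Rgnef it had 1.83, 1.49 and 1.83 FPKM, from 78 to 99 reads. The groups did not overlap, but the difference of 0.27 (SE 0.123) did not pass the test (limma adjusted p = 0.197). Genes of chromosome 7 as a whole were higher in the knockout libraries, with a median difference of 0.24 over 819 tested genes, against -0.02 over all tested genes. Of those 819 genes 28.8% were called higher and 0.855% lower. After each chromosome's median deviation was taken from each library, the difference of Six5 was 0.02 (limma adjusted p = 0.953). In the same setting the difference of Eya4 was 0.81 (limma adjusted p = 0.00392) and that of Eya2, the gene chosen by its fall, -2.52. What part chromosome 7 had in the difference of Six5 was not tested. In knockout cells Six5 stood at 1.72 ± 0.196 FPKM and Eya2 at 1.57 ± 0.0704 FPKM. Six5 was the higher in each knockout library, but only just in knockout 2 (1.490 against 1.486 FPKM). With longest coding transcripts as lengths Eya2 stood at 0.788 ± 0.0354 and lay further below Six5, whose length is the same on both scales.

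SIX-family factors recognise the MEF3 element, first described in muscle promoters. The letters TCAGGTTTC were searched on both strands in RefSeq promoters (GRCm38.p6, from 250 bases before to 50 after a start), where 5 of the 7 members, Eya3, Eya4, Six2, Six4 and Six5, matched with 7 promoters. They occurred in 1 of these 7 promoters and in 141 of all 32851 (0.429%). With 7 promoters this count is no result about the members, and Eya1 and Eya2 had no promoter to search. The match lies on the opposite strand of a Six4 promoter, with 90 bases between it and the start, and is shown in capitals with its surroundings (chr12:73113311-73113369, minus strand, upstream of that RefSeq start and inside the gene as GENCODE annotates it) because it places the family's own motif beside a family member.
Six4: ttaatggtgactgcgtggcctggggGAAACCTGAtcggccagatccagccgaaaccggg
This is a match of letters and no measured site.

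Beside Eya2, 4 members were tested, namely Eya3, Eya4, Six4 and Six5. Of these 1 rose (Eya4) and 0 fell. Over all 11500 tested genes 13.4% were called at a limma adjusted p below 0.05, 8.04% higher and 5.34% lower in the knockout libraries. For 3 of the 4, all but Six4, the 2 groups did not overlap, as for 33.4% of all tested genes. With 4 genes these counts are no result about the members as a group. The background moved with the libraries used: with library 1 or 2 of either group left out it was 455 to 592 higher and 198 to 378 lower genes, against 925 and 614, while Eya4 kept its call in each case. By size of difference Eya4 was rank 198 from the top and Six5 rank 1620.

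**Figure D3:**
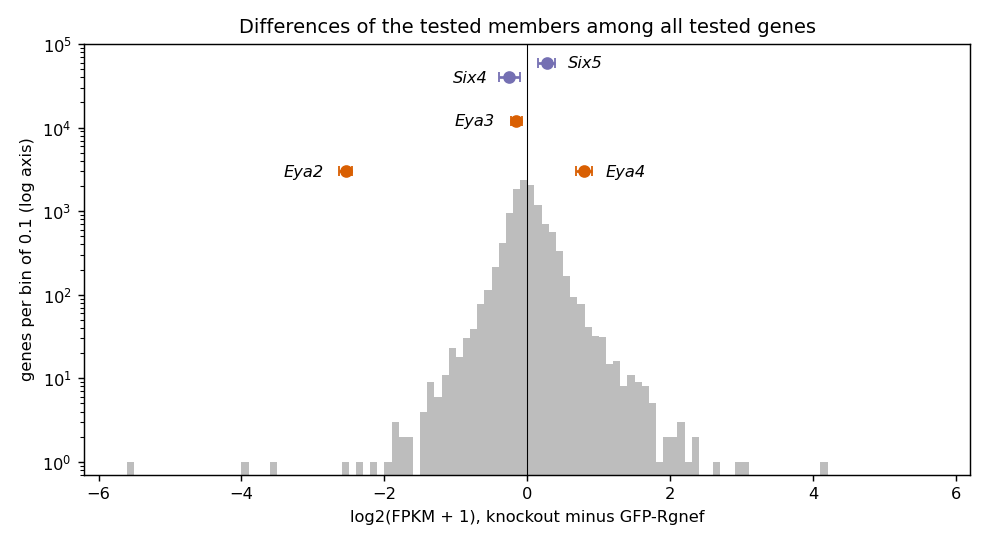
Number of tested genes (vertical axis, log scale) by log2 difference, knockout minus GFP-Rgnef (horizontal axis); circles with bars of 1 SE mark the 5 tested members, and their height has no meaning. Eya2 at -2.54 lies outside the bulk of genes, Eya4 at 0.79 on its upper flank, and Eya3, Six4 and Six5 within 0.3 of 0.

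Neither nearest tested neighbour of Eya2 passed the test. Zmynd8, a chromatin reader gene that begins 12425 bases after the end of Eya2, had 14.6 ± 0.904 FPKM with GFP-Rgnef and 16.6 ± 1.04 without (SD, n = 3; limma adjusted p = 0.211). On the other side Trp53rka, a kinase gene 101708 bases away, had 15.9 ± 1.46 and 14.4 ± 1.62 FPKM (limma adjusted p = 0.441). Within 1000 kb of the start of Eya2 lay 18 tested genes, of which 2 rose and 1 fell, where 8.04% and 5.34% of all tested genes did. Here and around the other members, a gene was counted if any part of it lay within this distance of the member's start. The differences of these 18 genes ran from -0.31 to 0.71 (median -0.07). Around Eya4 there were 6 tested genes, of which 1 rose and 1 fell. Its nearest tested neighbours were Rps12, a ribosomal protein gene that did not pass the test (limma adjusted p = 0.667), and Tbpl1, a TATA-binding protein relative 371025 bases away. Tbpl1 rose from 30.9 ± 1.20 to 37.04 ± 1.86 FPKM (limma adjusted p = 0.0495), a call lost when any library other than GFP-Rgnef 3 was left out, up to 0.183.

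Around the members that did not pass the test, the surroundings were as follows. Within 1000 kb of Eya3, 10 of 39 tested genes fell and 0 rose, where 5.34% and 8.04% of all tested genes did. The median difference of these 39 genes was -0.18 and that of Eya3 itself -0.15, and a link between them was not tested. After chromosome medians were removed the difference of Eya3 was -0.09 (limma adjusted p = 0.578). Its direct neighbours Dnajc8 and Xkr8 did not pass (limma adjusted p = 0.249 and 0.311). Around Six5, 9 of 37 rose and 0 fell (median 0.20). Its neighbours Dmpk and Fbxo46 had differences of 0.24 and 0.31 and did not pass (limma adjusted p = 0.532 and 0.0815). Around Six4, 0 of 9 passed, and its neighbour Mnat1 differed by -0.06. Around Six2, 0 of 6 passed, with Camkmt and Srbd1 as neighbours (limma adjusted p = 0.982 and 0.298). Around Eya1, 0 of 3 passed, with Lactb2 and Terf1 as the nearest (limma adjusted p = 0.0778 and 0.332).

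**Figure D4:**
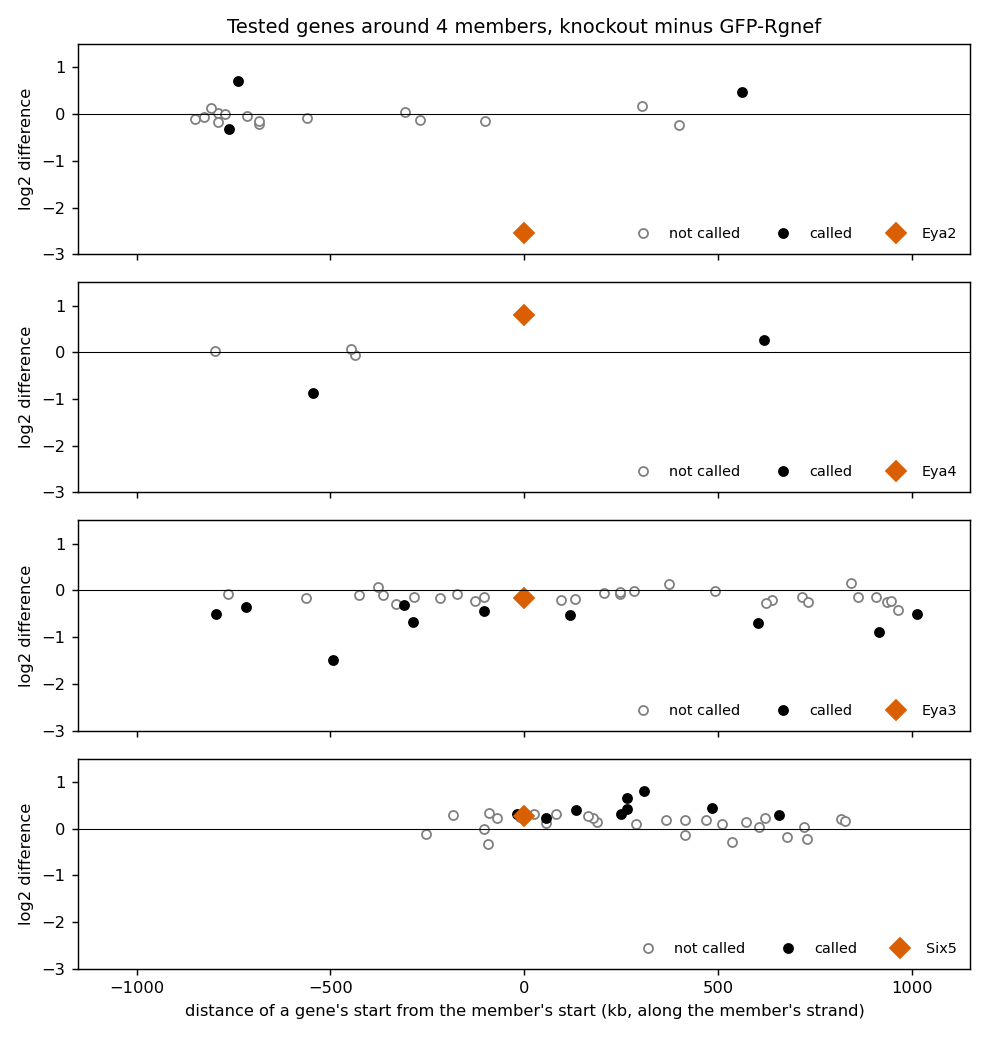
Log2 difference, knockout minus GFP-Rgnef (vertical axis), of tested genes with any part within 1000 kb of the start of Eya2, Eya4, Eya3 or Six5. The horizontal axis gives the distance of their start from the member's start in kb. Filled circles passed limma's test and diamonds are the members. A gene around Eya4 that starts 1192 kb away lies outside the axis and is not drawn. Eya2 at -2.54 lies below the other genes of its panel, which run from -0.31 to 0.71. Its place rests on the fall by which it was chosen. Eya3 and Six5 lie among their neighbours.

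The genes whose profile over the 6 libraries was most like that of Eya2 were taken by the smallest distance between centred log2(FPKM + 1) values, among 10627 other genes with a symbol and a mean of at least 1 FPKM. Nearest was Arhgap40, which also lies on chromosome 2, at a distance of 0.362 (Pearson's r = 0.996, n = 6 libraries). It had 4.96, 5.98 and 4.58 FPKM with GFP-Rgnef and 0.359, 0.236 and 0.105 without. Next came Cbr3, a carbonyl reductase gene (distance 0.865, r = 0.967), and Epb41l4b, a FERM domain gene (0.896, r = 0.985). The urea transporter gene Slc14a1 followed (1.08, r = 0.962), with 3.76 ± 1.36 against 0.284 ± 0.0727 FPKM, and then the predicted gene Gm10639 (1.23, r = 0.924). Their GFP-Rgnef libraries were less alike than those of Eya2, with coefficients of variation from 13.9% for Arhgap40 to 54.4% for Gm10639, against 6.10%. In Cbr3, Epb41l4b, Slc14a1 and Gm10639 the library GFP-Rgnef 3 was the highest, and in Eya2 and Arhgap40 it was the lowest. This likeness rests on the contrast that chose Eya2 and is a description with no test.

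Genes that act upstream of, beside or against EYA and SIX-family proteins showed 0 calls among 6 tested. Of all tested genes 8.04% were called higher and 5.34% lower, so with 6 genes this count is no result about the list. Of 19 PAX, DACH, SIX-family, SALL, TLE and related genes found in the table, 8 were at 0 in every library and 13 lay below the filter. The DACH genes, whose products act as co-repressors in the network, were nearly silent: Dach2 was at 0 throughout and Dach1 at most 0.0244 FPKM. Pax3, a paired-box factor of neural crest and muscle, had 14.7 ± 0.897 FPKM with GFP-Rgnef and 13.2 ± 0.723 without (SD, n = 3; limma adjusted p = 0.315). Tle3, a Groucho-type co-repressor gene on chromosome 9, had 26.7 ± 1.07 and 32.8 ± 3.42 FPKM (limma adjusted p = 0.0700). At an unadjusted p below 0.05 there were 2 genes, and limma-voom on recovered reads also called 0. Without knockout 2 there was 1 higher call. The list's median difference was 0.17, against -0.02 over all tested genes.

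The list of EYA partners, substrates and regulators had 16 tested genes, with 3 higher and 1 lower call, where 8.04% and 5.34% of all tested genes were higher and lower, and a median difference of 0.05. Apbb1, the gene of the adaptor FE65, which binds EYA proteins, rose from 4.22 ± 0.0629 to 7.601 ± 0.836 FPKM (limma adjusted p = 0.00418). It lies on chromosome 7, and after chromosome medians were removed its difference was 0.46 in place of 0.72, still with a limma adjusted p of 0.0220. Atm, the DNA damage kinase gene, rose from 16.3 ± 2.49 to 22.9 ± 1.08 FPKM, and the G protein gene Gnai2 from 107.5 ± 7.69 to 130.8 ± 3.28 (limma adjusted p = 0.0270 and 0.0324). Both lie on chromosome 9. After chromosome medians were removed neither passed, with differences of 0.18 and -0.01 (limma adjusted p = 0.368 and 0.961). What part the chromosome had in the rises of Apbb1, Atm and Gnai2 was not tested. Atm also lost its call when library 1 or 2 of either group was left out, and Gnai2 without any 1 library (limma adjusted p up to 0.0856 and 0.0937). Mapk9, the gene of the kinase JNK2, fell from 30.7 ± 3.11 to 21.7 ± 0.780 FPKM (limma adjusted p = 0.0106), and without knockout 3 the list had 2 lower calls. The histone gene H2afx, whose product is the substrate of EYA phosphatases in DNA repair, did not pass, at 67.2 ± 7.77 against 78.1 ± 3.54 FPKM (limma adjusted p = 0.153).

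Of 20 genes described as SIX-family and EYA targets 10 were tested; 1 rose and 0 fell, where 8.04% and 5.34% of all tested genes did, and the median difference was 0.13. The one that rose was Vegfc, a lymphatic growth factor gene, at 3.56, 3.85 and 3.88 FPKM with GFP-Rgnef and 7.13, 7.33 and 5.49 without (log2 difference 0.68, SE 0.117, limma adjusted p = 0.00896). Without knockout 3 the list had 2 higher calls and 1 lower call. The groups of Vegfc did not overlap, and a link between Vegfc and any member was not tested. The ezrin gene Ezr, the most abundant of the list by its mean over the 6 libraries, had 470.1 ± 64.0 FPKM with GFP-Rgnef and 555.3 ± 73.9 without (SD, n = 3; limma adjusted p = 0.256). The cyclin gene Ccnd1, on chromosome 7, had 404.8 ± 81.5 and 610.6 ± 120.7 FPKM, above Ezr in the knockout group (limma adjusted p = 0.0695). Myc, a growth regulator gene that is on the partner list too, had 120.4 ± 5.16 and 94.2 ± 16.04 FPKM (limma adjusted p = 0.0700). For both genes the groups did not overlap, but neither passed the test. The muscle regulators Myod1, Myog and Myf5 were at 0 in all libraries.

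**Figure D5:**
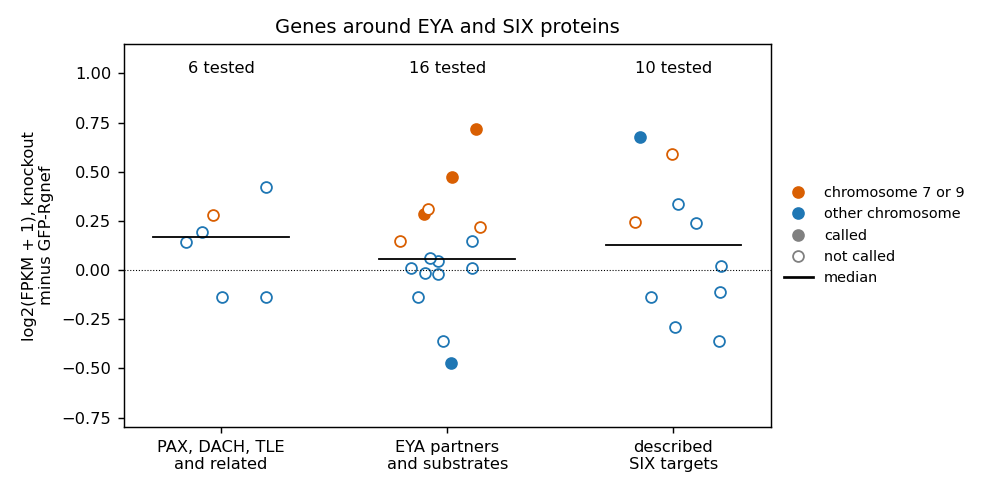
Log2 difference, knockout minus GFP-Rgnef (vertical axis), of tested genes in the 3 lists, each point a gene; filled points passed limma's test, colour marks chromosome 7 or 9 and black lines are medians. All 3 partners that rose lie on chromosome 7 or 9, where 6 of the 16 tested partners lie. The share of all chromosome 9 genes that were called is not given here. What part the chromosome had in these rises was not tested. The list medians are 0.17, 0.05 and 0.13.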

How the data were processed

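The deposited values are FPKM, computed by the authors, in 1 table of 6 libraries by 35275 Ensembl identifiers. They come from poly-T selected RNA and an NEBNext Ultra kit per the labels' protocols. The submitters' processing notes name CASAVA 1.8, TopHat2 2.0.9, DESeq2 and the build mm10. Which tool made which value, and the handling of strand, are not given in the sources used here. GENCODE M 21 (GRCm38) supplied coordinates and, for 34490 identifiers, a symbol.

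Low values were whole multiples of 1 read, and reads were recovered within 0.02 of a whole number for 99.99% of the 19655 genes above 0. The length that did so was the rounded mean over annotated transcripts for 11410 genes and an exon union for 117. For 8127 genes, Eya4 among them, the smallest such length was used. The recovered reads summed to 99.74% to 99.78% of the implied depths.

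Genes with a mean FPKM of 0.5 or more (11500) were tested on log2(FPKM + 1) by limma (version 3.58.1, trend option, R version 4.3.3), with Benjamini-Hochberg adjustment over all of them and a call below 0.05. Differences are knockout minus GFP-Rgnef, and this scale understates changes of low genes. The script was tested on simulated data. Motif and word searches used Python 3.11.15 with pandas 2.3.3 and numpy 2.4.6, and matplotlib 3.10.9 drew the plots. On recovered reads voom called 994 higher and 576 lower genes.

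The members and lists were chosen with earlier results of these data known. Named genes were the members, Arhgef28, up to 4 called genes of each list (filled to 2 with the most abundant), the nearest tested gene on each side of each member, and the 5 genes most like Eya2. Dach1, Dach2, H2afx, Ccnd1, Myc, the muscle regulators and the markers were named after their values were seen. Of the lists, 19 of 20, 17 of 17 and 20 of 20 genes were found by symbol. One gene that enters the counts, and is a nearest neighbour, is not reported here. Other settings tried were the pseudocount, the filter, TPM or median-ratio scaling, the trend, the replicate number as a block, voom on recovered reads, chromosome medians and each library left out. Added after the data were seen were the libraries numbered 3 left out and another transcript length.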

Additional observations from a re-analysis of the deposited data

How the results depend on the processing

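Of the tested members other than Eya2, 1 (Eya4) was called under all 16 alternatives, with log2 differences from 0.72 to 0.90 and limma adjusted p from 0.000281 to 0.0225. Eya3, Six4 and Six5 kept their direction and were called under none of theirs, with limma adjusted p of at least 0.141, 0.146 and 0.115. Eya2 ran from -3.13 (voom on recovered reads) to -2.50 and was -3.08 with a pseudocount of 0.1 and -2.71 with TPM scaling. Over all genes, 925 higher and 614 lower calls became 1517 and 1253 with the replicate block, 491 and 384 after chromosome medians were removed, and 455 to 850 and 198 to 578 with 1 library left out; 394 were lower without a filter and 1048 without the libraries numbered 3. Same-numbered libraries deviated together for numbers 1 and 3 (r = 0.321 and 0.552) but not for number 2 (r = -0.0199). Not every library correlated best with its own number, since GFP-Rgnef 2 did so with knockout 1 (r = 0.399). What same-numbered libraries share beyond the number is not given in the sources used here and was not tested. With the replicate block the network list had 1 higher, the partner list 5 higher and 2 lower and the target list 3 higher and 2 lower. Without the libraries numbered 3 the network list had 1 higher, the partner list 4 higher and 2 lower and the target list 3 higher and 2 lower. The partner list had 1 higher without a filter and 1 after chromosome medians were removed. With 1 library left out the network list had 0 to 1 higher, the partner list 1 to 2 higher and 1 to 2 lower, and the target list 1 to 2 higher and 0 to 1 lower. The causes of these shifts were not tested. The depth leaves Eya1 and Six2 undecided.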
